A study of Mus musculus with 3 samples.

Results

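Solute carriers are the largest group of membrane transporters, and their genes carry symbols that start with Slc and a family number. The genes described here are the 136 of 279 Slc genes in the count table of a mouse corneal epithelium series that had 2000 or more unique molecular identifiers (UMIs, each tagging 1 captured transcript) summed over all cells. The rule used only that sum, in which classes with more UMIs weigh more, and no difference between cell classes. Just inside the limit were Slc7a5 with 2133 and Slc25a25 with 2107 UMIs, and just outside were Slc12a9 with 1999, Slc46a3 with 1899 and Slc39a11 with 1892. Of the 136 genes, 3 are not transporters by name. Slc9a3r1 encodes a scaffold protein that binds transporters, and Slc4a1ap and Slc7a6os are named after a neighbour or partner.

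The series is single-cell RNA sequencing of corneal epithelium from C57BL/6J mice, for which the labels give no other genotype and no treatment, in 3 droplet libraries that count transcript 3′ ends. The epithelium was lifted off with enzyme G and dissociated with trypsin. Library 1 was pooled from 4 corneas of 2 males aged 20 weeks, library 2 from 4 corneas of 2 females aged 11 weeks, and library 3 from 7 corneas of 7 males aged 10 weeks. The replicate is the library, so sex, age and library cannot be told apart. The 38111 cells (9488, 11273 and 17350 in libraries 1 to 3) carry 1 of 8 class labels from the authors. They are called limbal (LSC in the deposited table), basal, TAC1, TAC2, wing, superficial (Squam), conjunctival (Conj) and immune here. The 3 superficial markers Muc4, Krt78 and Ly6g6c and the 5 immune markers were highest in their own classes. For the other classes the fit was partial, with 1 of 3 basal, 2 of 4 limbal and 3 of 5 conjunctival markers highest in the labelled class. The limbal marker Gpha2 stood at 2251 CPM in limbal cells and at 111 CPM or less in every other class.

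The corneal epithelium is a layered sheet without blood vessels. Basal cells lie on the basement membrane and take up glucose, amino acids and ions that reach them from the aqueous humour and the limbal vessels, wing cells lie above them, and superficial cells form the barrier facing the tear film. Transporters of the Slc families move such solutes by facilitated diffusion, by exchange, or by coupling to the sodium gradient that the sodium pump maintains.

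Library totals were 187340736, 177449217 and 190393121 UMIs, and the 136 genes held 0.507%, 0.475% and 0.465% of them. Counts were summed per library and class, and levels are counts per 1000000 (CPM) scaled by trimmed mean of M values (TMM), in which the bulk of genes is set level between sums. Superficial cells had scaling factors of 0.451 to 0.477, whereas the other epithelial classes had 0.831 to 1.22, so each superficial level depends on this choice. Without it, the log2 fold change of all genes against basal cells had a median of -1.26, and with it -0.11. Calls of higher genes, and of genes that passed no test, depend most on it, so both scalings are given for the main counts and for named genes whose call turns. The 114 immune cells (26, 68 and 20 per library) had a median of 1976 UMIs, and most Slc values there rest on few UMIs. Libraries shared 32 to 57 cell barcodes per pair.

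Promoter windows are printed first for 4 genes that the layer comparisons turn on, a pair of glucose transporters and the dicarboxylate and amino acid transporters Slc13a2 and Slc38a2. They were chosen after their values were seen. Each window runs from 250 bases before to 50 bases after the gene start in RefSeq (GRCm38.p6), 5′ to 3′ on the gene's strand, with CG dinucleotides in capitals. The windows lie at chr5:33103969-33104268 on the plus strand (Slc5a1), chr11:78422185-78422484 on the minus strand (Slc13a2), chr4:119108495-119108794 on the plus strand (Slc2a1) and chr15:96699679-96699978 on the minus strand (Slc38a2).
Slc5a1: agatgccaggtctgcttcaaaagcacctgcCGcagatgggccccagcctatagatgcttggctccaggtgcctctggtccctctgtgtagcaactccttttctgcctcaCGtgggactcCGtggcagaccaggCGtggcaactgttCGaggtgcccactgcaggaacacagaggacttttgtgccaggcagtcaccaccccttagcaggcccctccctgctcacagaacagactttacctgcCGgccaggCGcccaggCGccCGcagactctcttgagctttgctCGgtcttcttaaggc
Slc13a2: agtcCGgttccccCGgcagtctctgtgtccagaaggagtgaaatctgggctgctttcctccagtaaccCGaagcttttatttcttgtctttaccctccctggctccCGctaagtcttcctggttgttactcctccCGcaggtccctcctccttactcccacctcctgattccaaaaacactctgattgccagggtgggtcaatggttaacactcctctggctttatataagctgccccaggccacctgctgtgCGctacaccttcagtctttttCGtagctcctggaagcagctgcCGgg
Slc2a1: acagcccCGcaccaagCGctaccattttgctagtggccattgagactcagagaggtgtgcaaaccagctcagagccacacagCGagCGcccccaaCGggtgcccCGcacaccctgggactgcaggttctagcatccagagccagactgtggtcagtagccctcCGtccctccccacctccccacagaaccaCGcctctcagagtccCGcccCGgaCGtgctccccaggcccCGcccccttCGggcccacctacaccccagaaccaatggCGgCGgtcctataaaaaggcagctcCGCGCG
Slc38a2: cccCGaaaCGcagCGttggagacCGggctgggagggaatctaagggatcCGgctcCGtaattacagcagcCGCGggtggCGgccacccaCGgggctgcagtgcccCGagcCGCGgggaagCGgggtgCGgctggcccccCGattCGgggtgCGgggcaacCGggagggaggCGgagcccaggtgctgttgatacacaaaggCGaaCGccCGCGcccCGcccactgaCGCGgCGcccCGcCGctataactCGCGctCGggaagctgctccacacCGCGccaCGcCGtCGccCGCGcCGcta

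Slc5a1 and Slc13a2, which were high in superficial cells, had 10 and 8 CG dinucleotides in the window. Slc2a1 and Slc38a2, which were high in basal cells, had 18 and 41. This contrast did not extend to the sets they come from. Windows were found for 104 of the 136 genes. The 14 of these that were higher in superficial than basal cells by 3 or more on the log2 scale had a median of 17 CG dinucleotides, the 32 that were lower had 18, and all 27025 genes of the promoter table had 7. A match to the AP-1 motif TGANTCA (either strand) was present in 1 of those 14 windows, in 3 of those 32 and in 7.93% of all windows. The KLF motif GGGTGTGG was present in 2 of 14, 3 of 32 and 3.57%. Of the 104 windows 1 held the GRHL motif AACCNGTT, against 2.01% of all windows, and 0 held the amino acid response element TGATGNAAT, against 0.969%. Matches this rare are too few in 104 windows for a comparison with all genes, and sequence outside the windows was not searched.

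Comparing superficial with basal cells asks how the outermost layer differs from the innermost. Both classes came from the same 3 libraries, and counts were compared with edgeR's quasi-likelihood test with the library as a block and Benjamini-Hochberg adjustment over all genes. The class labels were made by the authors from these same cells, so the p-values describe spread over 3 libraries and are not independent of the labels. The library pools are the replicates. Of the 136 Slc genes, 72 were higher and 44 lower in superficial cells, beside 41.3% and 45.2% of all 12500 genes tested. Among tested genes with 2000 or more UMIs, 47% were higher and 40.6% lower. With a change of at least 2-fold also required, a rule chosen after the data were seen, 53 were higher and 31 lower, beside 28.8% and 24% of genes with 2000 or more UMIs. Scaled to the total only, 43 were higher and 79 lower, beside 22% and 69.9% of the genes with 2000 or more UMIs. All of those 43 were among the 72, 15 of the 72 turned to lower, and all 44 lower genes remained lower. The median log2 fold change was 0.42 for the Slc genes, 0.12 for genes with 2000 or more UMIs and -0.11 for all genes with TMM, and -0.73, -1.04 and -1.26 without it.

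**Figure D1:**
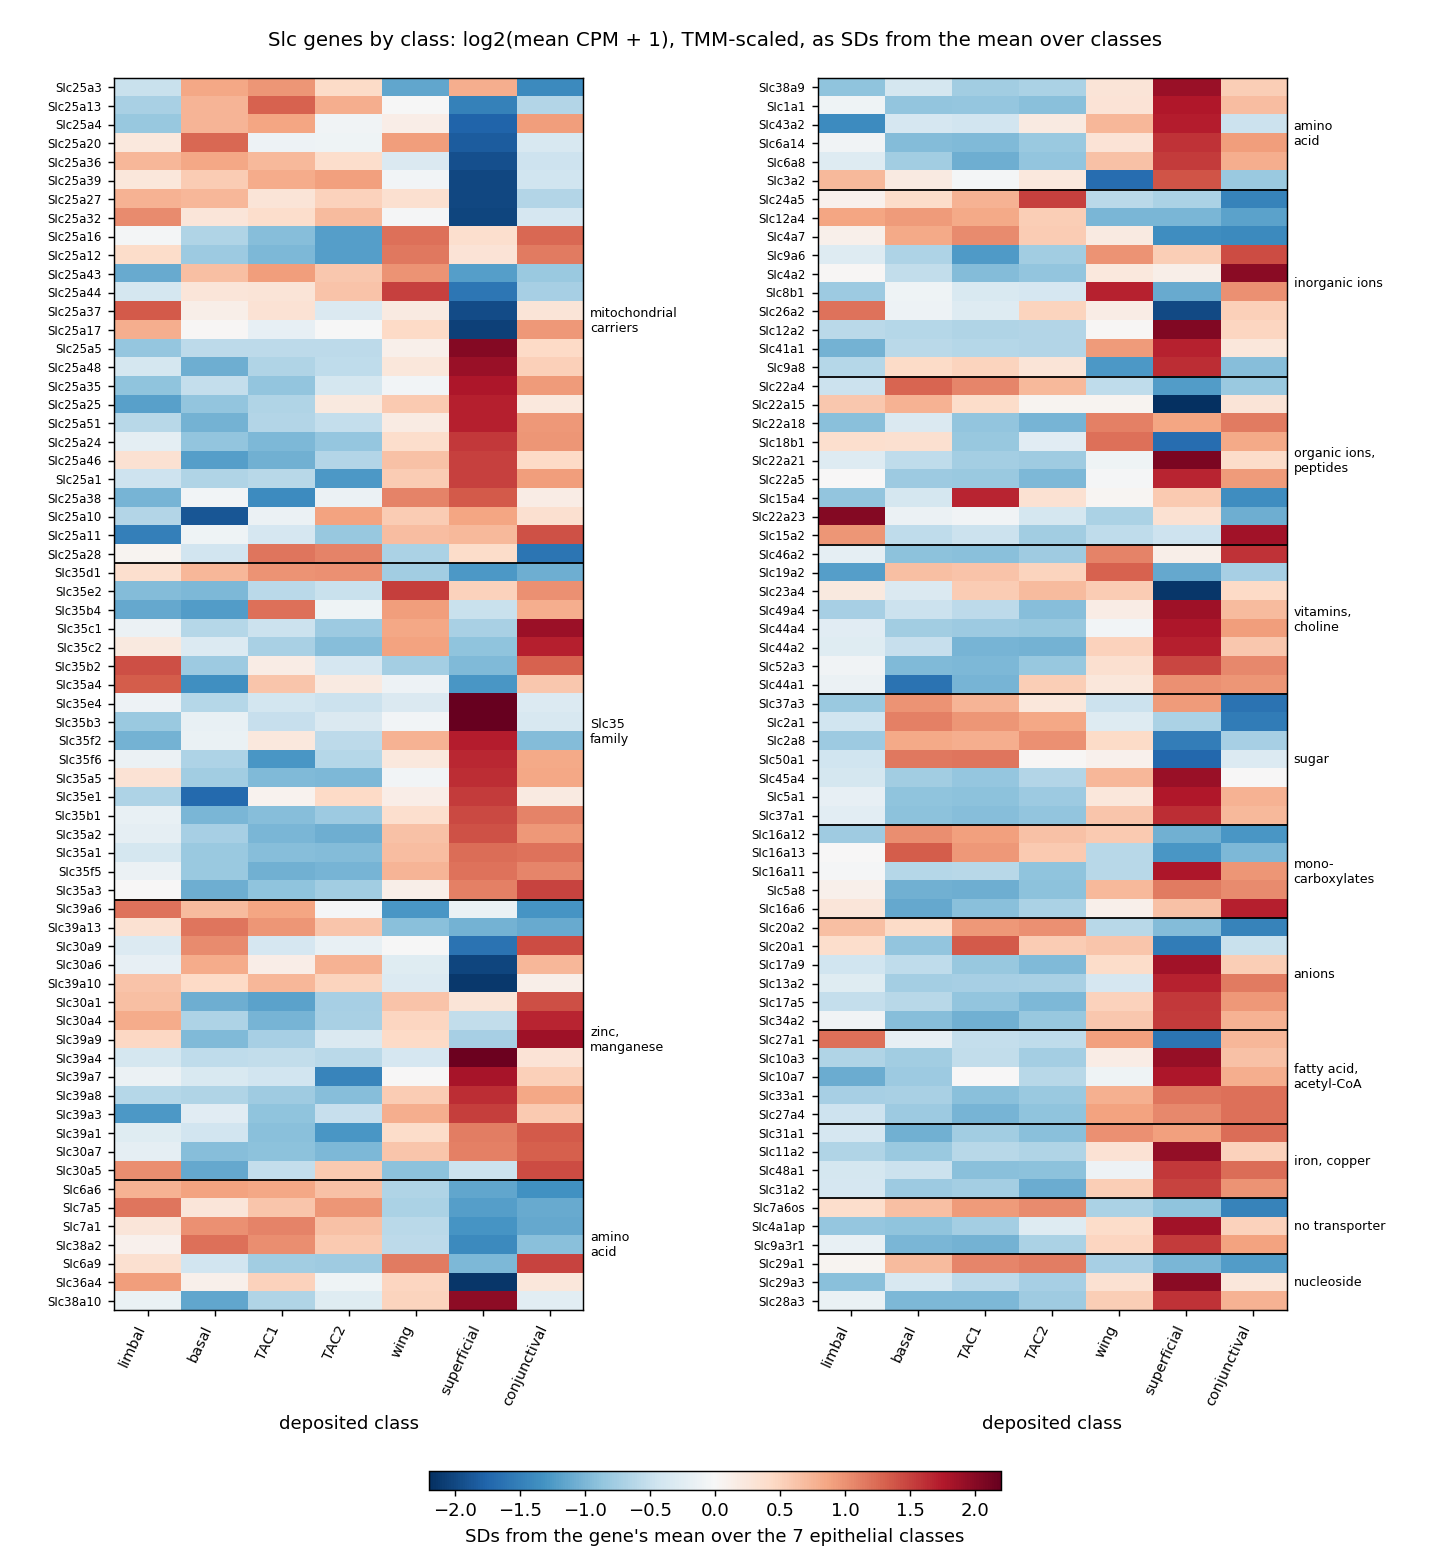
Log2(mean CPM + 1) of 132 of the 136 Slc genes (rows, grouped by substrate) in the 7 epithelial classes (columns), TMM-scaled and shown as standard deviations from each gene's mean over these classes, red for high and blue for low. Over all 8 classes 56 of the 136 genes are highest in superficial cells, and genes that are low there and high in basal cells, such as Slc6a6 and Slc38a2, form the blue part of that column.

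Among sugar transporters, Slc5a1 encodes the sodium-coupled glucose transporter SGLT1 and Slc2a1 the facilitative transporter GLUT1. Slc5a1 stood at 1.12, 1.55 and 0.605 CPM in basal cells of libraries 1 to 3, at 24.4, 25.4 and 22.9 CPM in wing cells and at 841, 724 and 558 CPM in superficial cells. The classes did not overlap, and the log2 fold change from basal to superficial cells was 9.24 (SE 0.15, edgeR adjusted p = 9.6e-16), with 8.09 when scaled to the total. Slc2a1 ran the other way, with 22.2, 20.0 and 21.6 CPM in basal, 11.1, 9.85 and 8.74 CPM in wing and 7.62, 8.76 and 6.98 CPM in superficial cells. Its change from basal to superficial cells was -1.57 (SE 0.12, edgeR adjusted p = 2.5e-09). Slc50a1, a sugar exporter of the SWEET family, was lower by a log2 fold change of -1.48 (SE 0.08), and Slc37a1, a sugar phosphate exchanger, was higher by 4.25 (SE 0.10). Of the 7 sugar transporters 3 were higher, 3 lower and 1 passed no test, and 2 of the higher and all 3 lower held under both scalings.

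Amino acid transporters split by layer in the same way, with 7 of 13 higher and 6 lower, of which 4 and 6 held under both scalings. Slc6a14 encodes a sodium- and chloride-coupled transporter of neutral and cationic amino acids. Its levels were 1.71, 2.30 and 1.38 CPM in basal, 45.5, 39.7 and 49.8 CPM in wing and 958, 760 and 686 CPM in superficial cells, a log2 fold change of 8.69 (SE 0.14) from basal to superficial cells. Slc7a1, the cationic amino acid transporter CAT1, had 81.1, 76.6 and 64.6 CPM in basal but 10.4, 9.35 and 8.55 CPM in superficial cells (-3.08, SE 0.09). Slc6a6, the taurine transporter, was the amino acid transporter with the steepest fall. It stood at 740, 758 and 529 CPM in basal, 110, 112 and 79.7 CPM in wing and 68.1, 58.3 and 36.6 CPM in superficial cells, and the fitted change from basal to superficial cells was -3.77 (SE 0.10, edgeR adjusted p = 4.7e-15). Slc38a2, the neutral amino acid transporter SNAT2, had 301, 350 and 343 CPM in basal and 60.5, 67.3 and 54.5 CPM in superficial cells (-2.56, SE 0.09). No library's basal value of these 3 genes was reached by a wing or superficial value. Slc1a1, the glutamate and cysteine transporter EAAC1, rose from 5.85, 6.15 and 5.48 CPM in basal to 640, 527 and 430 CPM in superficial cells (6.39, SE 0.11). Its exons overlap a measured gene on the other strand, so its reads could be shared if strand was not used in counting, which the sources used here do not state.

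Slc3a2 encodes the heavy chain that takes amino acid transporters such as Slc7a5 (LAT1) to the membrane. It had 60.1, 67.5 and 69.0 CPM in basal, 21.9, 23.0 and 22.1 CPM in wing and 132, 131 and 126 CPM in superficial cells, lowest in the middle layer in every library. Its change was -1.60 (SE 0.05) from basal to wing and 2.48 (SE 0.06) from wing to superficial cells. Scaled to the total only, superficial cells stood at -0.28 against basal cells instead of 0.88 with TMM, so the order of these layers depends on the scaling. Slc7a5 fell by 2.32 (SE 0.22) on the log2 scale from basal to superficial cells. It also differed between libraries, as described below.

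**Figure D2:**
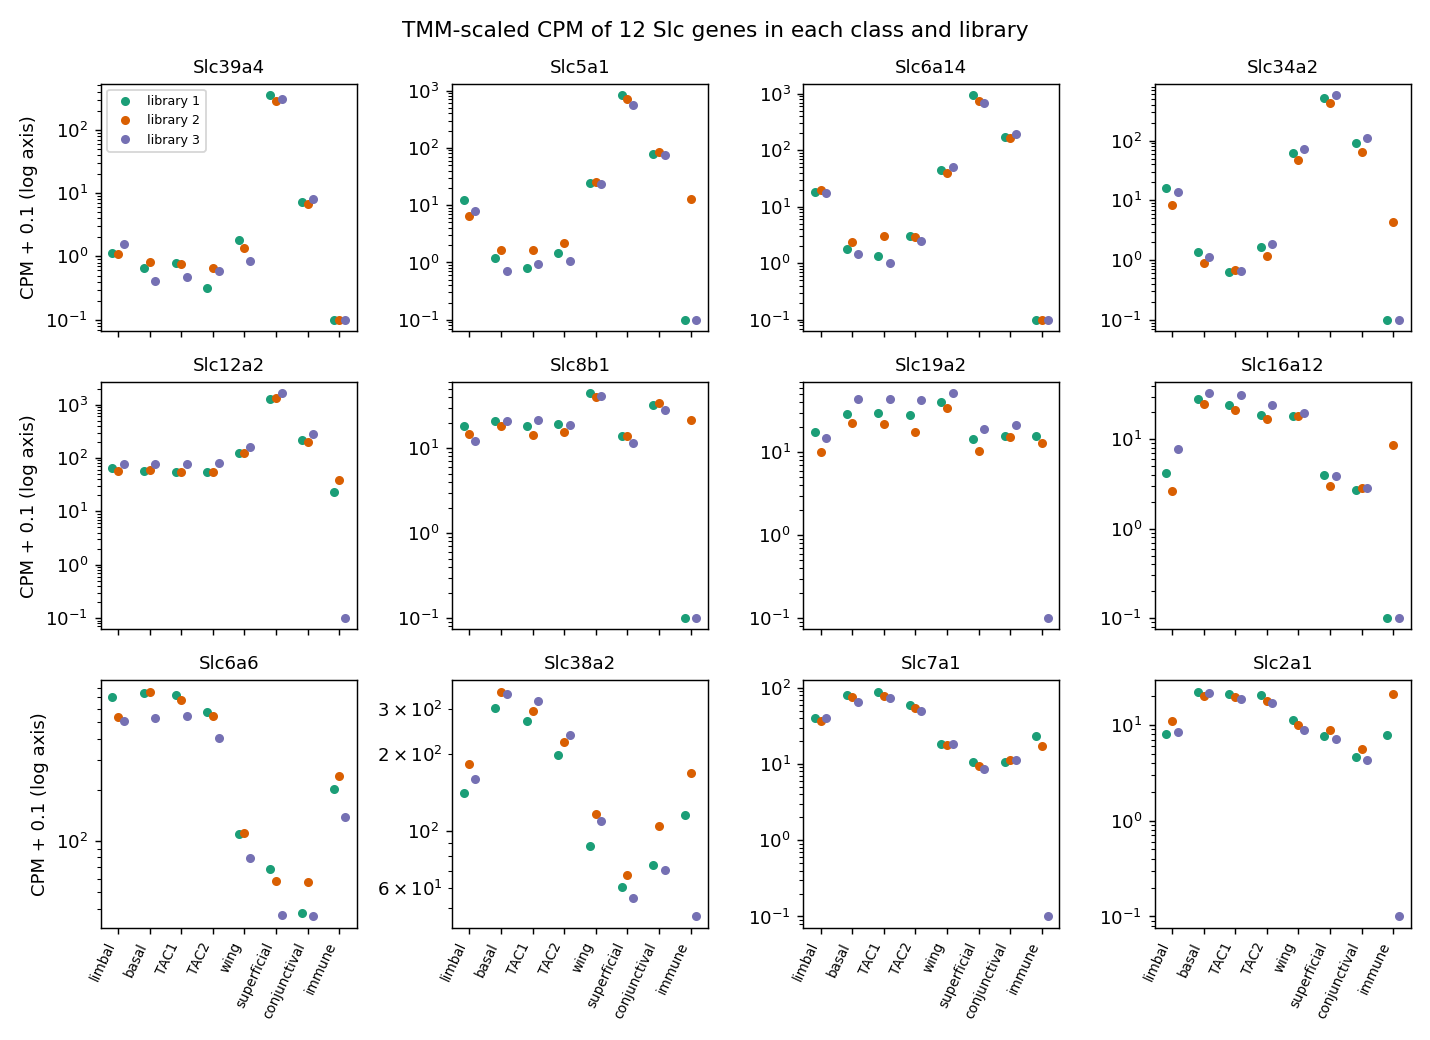
TMM-scaled CPM (log axis, 0.1 added) of 12 Slc genes in the 8 classes, with 1 point per library. Slc39a4, Slc5a1, Slc6a14, Slc34a2 and Slc12a2 are highest in superficial cells in all 3 libraries, Slc8b1 and Slc19a2 are highest in wing cells, and Slc6a6, Slc38a2, Slc7a1 and Slc2a1 have their highest mean in basal or TAC1 cells. Values of 0 CPM, most of them in the small immune class, plot at 0.1.

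Zinc and manganese transporters held 15 genes, of which 7 were higher and 4 lower in superficial cells, and 3 and 4 under both scalings. Slc39a4 encodes ZIP4, which brings zinc into cells. It stood at 0.559, 0.720 and 0.303 CPM in basal, 1.70, 1.24 and 0.739 CPM in wing and 355, 289 and 307 CPM in superficial cells. Its conjunctival levels of 7.25, 6.59 and 8.04 CPM were the nearest, and the superficial mean of 317 CPM was 43.5 times the conjunctival mean. The log2 fold change was 9.12 (SE 0.15, edgeR adjusted p = 7.0e-16) from basal to superficial cells, 1.18 from basal to wing cells and 7.98 (SE 0.21) from wing to superficial cells. Cells with 2000 or more UMIs were thinned to 2000. Of these, 21.0% ± 2.9 of superficial cells (SD, n = 3) held a Slc39a4 UMI, beside 0.059% ± 0.018 of basal and 0.179% ± 0.035 of wing cells. Without thinning these shares were 50.6%, 0.510% and 1.66%, at median depths of 15019, 8417 and 14083 UMIs. Slc39a8, a zinc and manganese importer, was already higher in wing cells, with 32.0, 25.1 and 33.6 CPM in basal, 95.4, 76.4 and 84.3 CPM in wing and 206, 203 and 220 CPM in superficial cells. Slc39a1 had a change of 0.52 with TMM and of -0.63 when scaled to the total. Slc39a6, another zinc importer, stood at -0.69 (SE 0.27), which did not pass the test, and at -1.84, a lower call, when scaled to the total.

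Phosphate, dicarboxylate and other anion transporters included the Slc gene with the largest fitted change. Slc13a2 encodes a sodium-coupled dicarboxylate transporter and had 0.132, 0.216 and 0.134 CPM in basal cells, from 4, 6 and 4 UMIs, against 139, 112 and 176 CPM in superficial cells (9.64, SE 0.15, edgeR adjusted p = 1.8e-17). Its exons overlap those of the antisense gene Slc13a2os. Slc34a2, a sodium-coupled phosphate importer, was at 1.25, 0.792 and 1.04 CPM in basal, 61.2, 46.9 and 72.8 CPM in wing and 510, 419 and 583 CPM in superficial cells (8.82, SE 0.12). Of the other sodium-coupled phosphate importers, Slc20a2 fell from 7.89, 6.19 and 8.54 CPM in basal to 3.77, 3.66 and 4.17 CPM in superficial cells, and Slc20a1 passed no test between these classes (-0.40, SE 0.25) but was lower, at -1.56, when scaled to the total. Slc17a5, the lysosomal sialic acid exporter, was higher by 1.85 (SE 0.09). In all 4 of 6 genes of this group were higher and 1 lower, under both scalings.

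**Figure D3:**
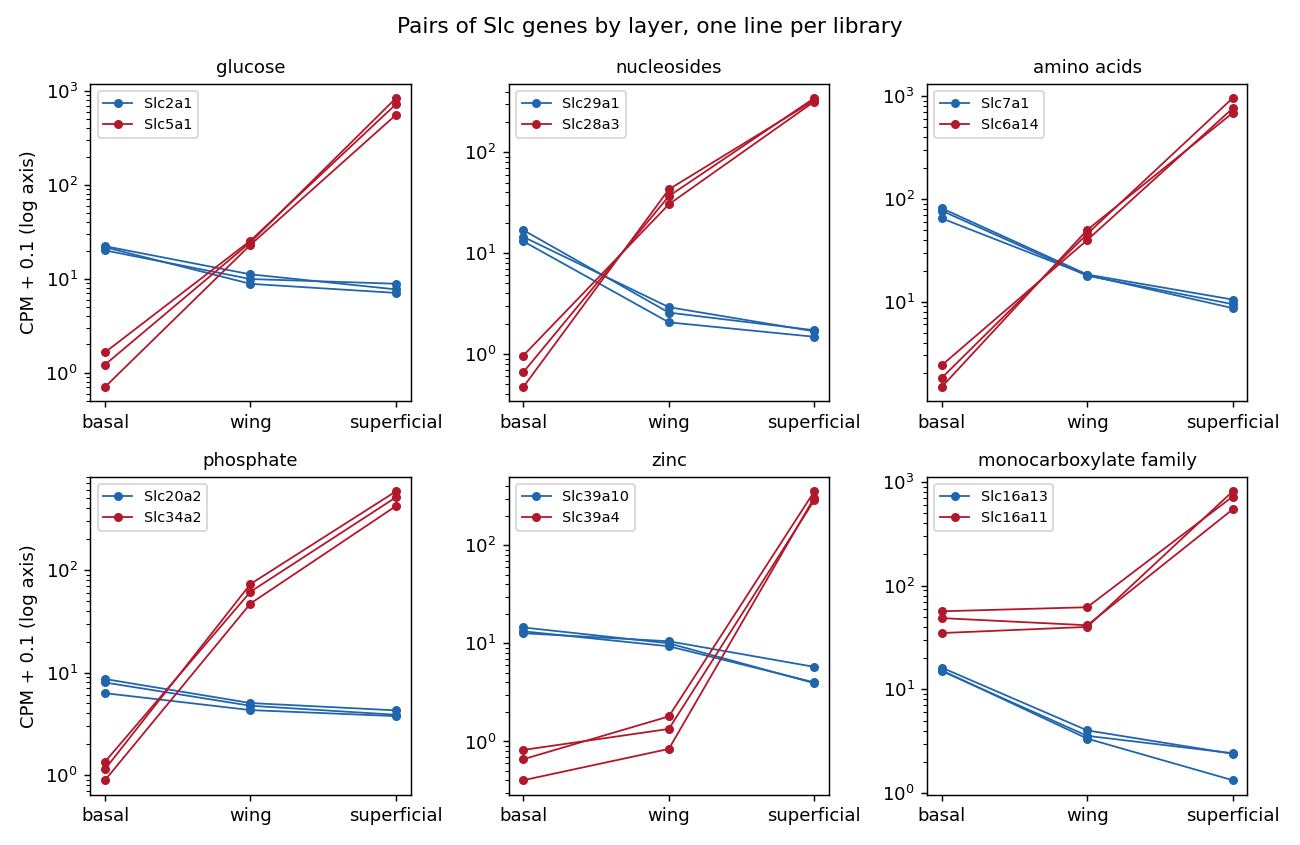
TMM-scaled CPM (log axis, 0.1 added) in basal, wing and superficial cells for 6 pairs of Slc genes with related substrates, with 1 line per library. The pairs were chosen after their values were seen, and in each pair 1 gene (blue) falls from basal to superficial cells and the other (red) is highest in superficial cells in all 3 libraries.

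Of 3 nucleoside transporters 2 were higher and 1 lower, under both scalings, and equilibrative carriers stood on both sides. Slc28a3, the sodium-coupled nucleoside transporter CNT3, had 0.559, 0.864 and 0.370 CPM in basal, 36.6, 30.4 and 42.8 CPM in wing and 345, 319 and 328 CPM in superficial cells (9.00, SE 0.15). Slc29a1, the equilibrative transporter ENT1, had 13.0, 16.8 and 14.4 CPM in basal and 1.38, 1.62 and 1.57 CPM in superficial cells (-3.37, SE 0.16), and its exons overlap a measured gene on the other strand. Slc29a3, an equilibrative carrier of inner membranes, was higher by 1.63 (SE 0.10).

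Monocarboxylate transporters carry lactate, pyruvate, ketone bodies and related acids, and 4 of 6 were higher and 2 lower under both scalings. Slc5a8, a sodium-coupled monocarboxylate transporter, rose early, with 1.32, 1.55 and 1.14 CPM in basal, 79.2, 68.2 and 82.1 CPM in wing and 183, 180 and 175 CPM in superficial cells. Slc16a11 did not differ beyond the test between basal and wing cells (-0.01, SE 0.07), where it had 56.5, 48.5 and 34.8 against 61.8, 41.4 and 39.9 CPM, and then stood at 721, 543 and 810 CPM in superficial cells. Its neighbour Slc16a13 fell from 15.2, 16.1 and 14.9 CPM in basal to 1.23, 2.30 and 2.33 CPM in superficial cells. In GENCODE M21 (GRCm38) Slc16a11 lies at chr11:70212752-70216417 on the plus strand and Slc16a13 at chr11:70216789-70221064 on the minus strand, so their 3′ ends face each other. Slc16a12, which carries creatine, fell by 3.13 (SE 0.12) on the log2 scale.

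Among 12 inorganic ion transporters 6 were lower and 4 higher, and 6 and 3 under both scalings. Slc12a2 encodes NKCC1, which brings sodium, potassium and chloride into the cell. Its levels were 56.1, 58.6 and 76.7 CPM in basal, 125, 126 and 159 CPM in wing and 1249, 1354 and 1633 CPM in superficial cells (4.36, SE 0.08, edgeR adjusted p = 1.8e-16). The potassium-chloride exporter Slc12a4 fell by 3.88 (SE 0.19) on the log2 scale. Slc41a1, a magnesium transporter, was higher by 1.80 (SE 0.09). Slc4a7, a sodium bicarbonate cotransporter, fell by 3.16 (SE 0.37), and Slc4a2, the anion exchanger AE2, passed no test (0.04, SE 0.10) with TMM and was lower, at -1.11, when scaled to the total.

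All 4 iron, copper and heme transporters were higher with TMM. Slc11a2, the divalent metal transporter DMT1, had 6.91, 7.30 and 6.05 CPM in basal, 23.1, 23.6 and 18.8 CPM in wing and 113, 109 and 90.4 CPM in superficial cells. Slc31a2, of the copper transporter family, rose by 2.93 (SE 0.08) and the copper importer Slc31a1 by 1.76 (SE 0.07). Slc48a1, a heme transporter, stood at 0.75 with TMM and -0.40 when scaled to the total, a call in each direction. Of 8 genes grouped as vitamin and choline transporters 6 were higher and 2 lower, and 4 and 2 under both scalings. Slc44a4, a thiamine pyrophosphate and choline transporter, had 0.263, 0.504 and 0.101 CPM in basal and 170, 149 and 161 CPM in superficial cells, and Slc52a3, a riboflavin transporter, was higher by 5.04 (SE 0.15). Slc44a2 was higher by 1.26 (SE 0.08). Slc19a2, a thiamine importer, fell by 1.24 (SE 0.09). When scaled to the total, Slc44a2 stood at 0.11 and passed no test.

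Mitochondrial carriers were the largest group, with 27 genes. Of these 11 were higher and 12 lower in superficial cells with TMM, and 4 of the 11 stayed higher when scaled to the total, while all 12 stayed lower. Slc25a48, a carrier of the inner mitochondrial membrane, was far from the rest of its family, with 4.70, 4.39 and 4.07 CPM in basal, 43.2, 37.3 and 46.9 CPM in wing and 618, 588 and 588 CPM in superficial cells (6.98, SE 0.10, edgeR adjusted p = 1.2e-17). Slc25a24, an ATP-magnesium phosphate carrier, was higher by 2.98 (SE 0.08). The ADP/ATP carriers Slc25a4 and Slc25a5 are close paralogs, between which counting can split reads. Slc25a4 had 604, 512 and 404 CPM in basal and 282, 214 and 132 CPM in superficial cells (-1.43, SE 0.10). Slc25a5 had 529, 524 and 515 against 778, 883 and 849 CPM, a change of 0.57 (SE 0.08) that turned to -0.59 when scaled to the total. The phosphate carrier Slc25a3 passed no test with TMM (-0.11, SE 0.07) and was lower, at -1.27, when scaled to the total. Slc25a39, a glutathione carrier, and Slc25a13, an aspartate-glutamate carrier, fell by 1.09 (SE 0.07) and 0.87 (SE 0.09).

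Slc35 genes mostly encode nucleotide sugar transporters of the Golgi and the endoplasmic reticulum. Of the 18, 11 were higher and 2 lower with TMM, and 4 of the 11 stayed higher when scaled to the total. Slc35a1, which carries CMP-sialic acid, rose from 33.5, 31.2 and 33.1 CPM in basal to 146, 132 and 157 CPM in wing and 246, 233 and 271 CPM in superficial cells. Slc35e4 rose mostly between wing and superficial cells (4.03, SE 0.10) and less between basal and wing cells (0.62, SE 0.16), with 1.68, 2.48 and 1.18 CPM in basal, 2.67, 3.06 and 2.59 CPM in wing and 54.7, 53.4 and 35.6 CPM in superficial cells. Of the organic ion and peptide transporters, 3 were higher and 3 lower of 9, and 2 and 3 under both scalings. The carnitine transporter Slc22a5 was higher by 4.57 (SE 0.13) and its relative Slc22a21 by 4.69 (SE 0.15). Of the fatty acid, acetyl-CoA and Slc10 genes 4 of 5 were higher (2 under both scalings), among them the acyl-CoA synthetase and fatty acid transporter Slc27a4 (2.32, SE 0.10). Slc9a3r1, the scaffold NHERF1, had 22.0, 21.6 and 17.8 CPM in basal, 128, 124 and 115 CPM in wing and 468, 451 and 368 CPM in superficial cells. Slc4a1ap was higher by 1.66 and Slc7a6os fell by 0.72 on the log2 scale.

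**Figure D4:**
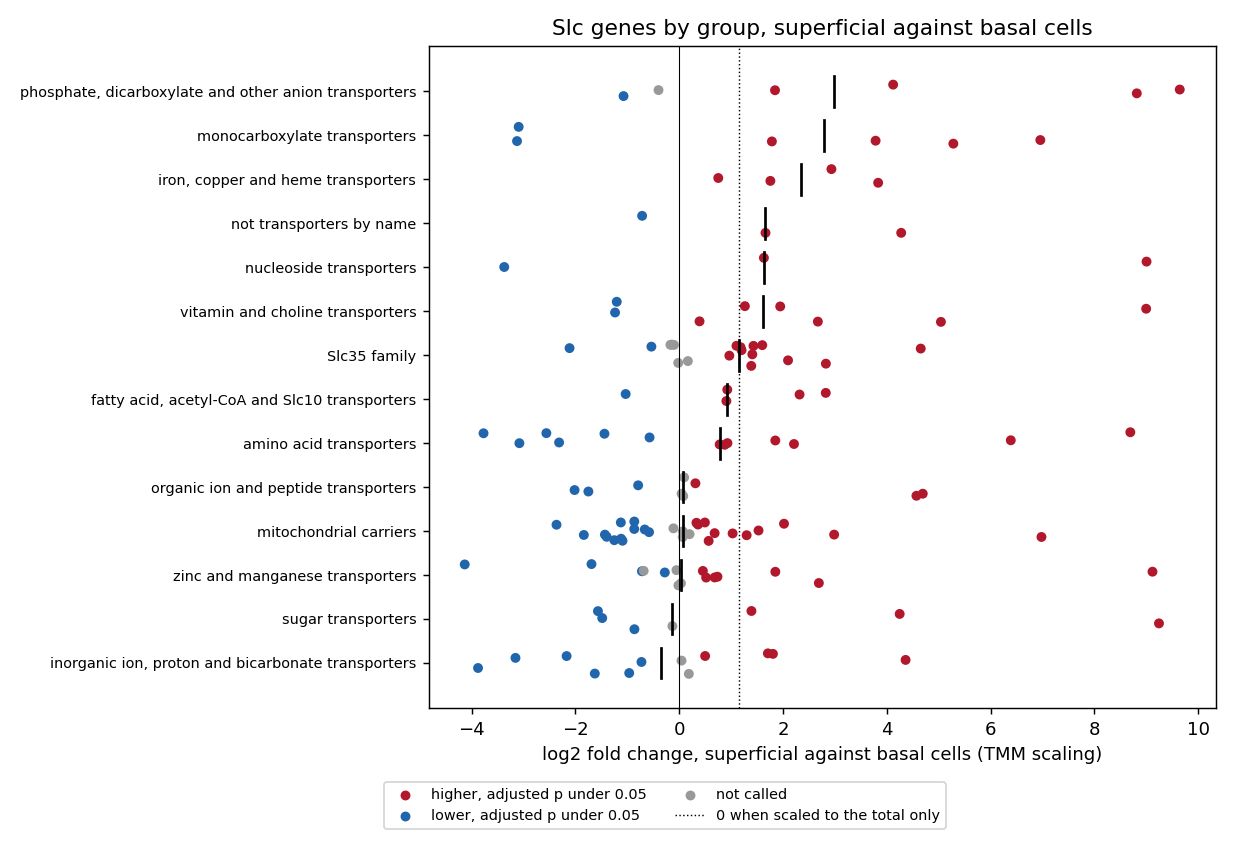
Log2 fold change of each of the 136 Slc genes from basal to superficial cells (x axis, TMM scaling), grouped by substrate, with group medians as black bars. Red points were higher, blue points lower and grey points not called, and the dotted line marks where a change would be 0 if counts were scaled to the total only. The inorganic ion group has the lowest median, and the anion group the highest.

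Wing cells were compared with basal cells to describe the first step up from the basement membrane. Of the 136 Slc genes 85 were higher and 32 lower in wing cells, beside 38.8% and 38.7% of all 13172 genes tested and 46.2% and 34.6% of those with 2000 or more UMIs. The counts were 70 and 42 when scaled to the total only, beside 35.6% and 45.9% of the latter. With at least 2-fold also required, 37 were higher and 14 lower, beside 14.8% and 7.9%. The largest rises among well-counted genes were in Slc28a3 (5.90, SE 0.16), Slc34a2 (5.82, SE 0.09), Slc5a8 (5.80, SE 0.09) and Slc6a14 (4.61, SE 0.13). The largest falls were in Slc6a6 (-2.79, SE 0.05), Slc7a1 (-2.08, SE 0.06), Slc38a2 (-1.72, SE 0.05) and Slc3a2 (-1.60, SE 0.05). All 8 genes grouped as vitamin and choline transporters were higher, under both scalings. All 5 fatty acid, acetyl-CoA and Slc10 genes and 15 of 18 Slc35 genes were higher with TMM, and 4 and 13 under both scalings.

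Superficial against wing cells isolates the last step to the tear surface. With TMM 64 Slc genes were higher and 50 lower, beside 37.9% and 41.8% of 12818 genes tested and 42.5% and 41.5% of those with 2000 or more UMIs. With at least 2-fold also required, 30 were higher and 22 lower, beside 17.9% and 17.4%. Scaled to the total only, 30 were higher and 97 lower, beside 15.2% and 77.6%, and 26 of the 64 turned to lower. The genes higher under both scalings included Slc39a4 (7.98, SE 0.21), Slc13a2 (6.55, SE 0.31), Slc44a4 (5.33, SE 0.07), Slc5a1 (4.78, SE 0.09), Slc6a14 (4.08, SE 0.12) and Slc16a11 (3.80, SE 0.22). Some genes peaked in between. Slc8b1, a mitochondrial sodium-calcium exchanger, had 21.0, 18.2 and 20.7 CPM in basal, 44.3, 40.0 and 40.9 CPM in wing and 13.8, 13.9 and 11.5 CPM in superficial cells, and it fell by 1.74 (SE 0.08) from wing to superficial cells. Slc19a2 likewise had 40.6, 34.3 and 51.4 CPM in wing against 29.2, 22.3 and 44.3 CPM in basal and 14.2, 10.4 and 19.2 CPM in superficial cells. Within each library wing cells were highest for both genes, although the ranges of Slc19a2 over libraries overlapped between basal and wing cells.

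Levels rose from basal through wing to superficial cells in all 3 libraries for 63 of the 136 Slc genes (46.3%), fell for 24 (17.6%), peaked in wing cells for 20 (14.7%) and dipped there for 7 (5.15%). Among all 9363 genes with 2000 or more UMIs the shares were 35.6%, 24.7%, 11.9% and 6.87%. Scaled to the total only, 27 Slc genes rose and 44 fell, beside 12.6% and 45.3% of the 9363 genes, and 42 (30.9%) peaked in wing cells, beside 23.8%. Over all 8 classes, 56 Slc genes (41.2%) were highest in superficial cells, beside 38.3% of the 9363 genes, and in 46 of them this held in all 3 libraries. The next class was the conjunctival one with 25 genes (18.4%), beside 10.1%. Basal and immune cells led for 12 genes each, limbal cells for 10, and TAC1, TAC2 and wing cells for 7 each. Under scaling to the total, superficial cells led for 22 (16.2%), conjunctival cells again for 25 (18.4%) and immune cells for 27 (19.9%), beside 11.5%, 9.74% and 22.7% of the 9363 genes.

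**Figure D5:**
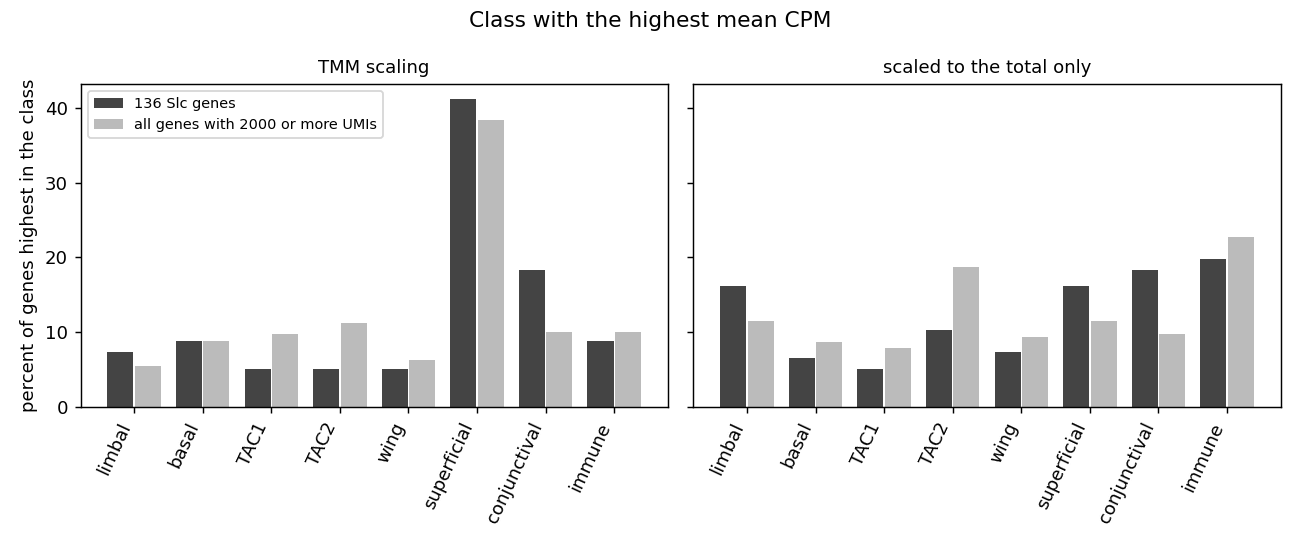
Percent of genes with their highest mean CPM in each class, for the 136 Slc genes (dark bars) and for all 9363 genes with 2000 or more UMIs (light bars), with TMM scaling on the left and scaling to the total only on the right. The superficial bars drop from 41.2% to 16.2% of Slc genes between the panels, and the conjunctival bar stays at 18.4%.

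The conjunctival class shares the basal class as its reference with the comparisons above, so its values are given for themselves. There 80 Slc genes were higher and 36 lower than in basal cells, beside 37.3% and 40% of 12244 genes tested and 42% and 36.7% of those with 2000 or more UMIs. Under scaling to the total, 57 were higher and 49 lower, beside 30.1% and 51.1%. With at least 2-fold also required, 44 were higher and 18 lower, beside 19% and 15.1%. Slc13a2 (8.05, SE 0.17), Slc5a8 (6.70, SE 0.12), Slc28a3 (6.55, SE 0.19), Slc6a14 (6.53, SE 0.15), Slc34a2 (6.33, SE 0.12) and Slc5a1 (6.09, SE 0.16) had the largest rises among well-counted genes, and Slc6a6 (-4.05, SE 0.10) and Slc16a12 (-3.46, SE 0.13) the largest falls. Conjunctival cells had the highest mean of Slc15a2 and Slc16a6. Slc15a2, a proton-coupled peptide transporter, had 54.6, 31.6 and 60.0 CPM in conjunctival cells, 21.1, 16.9 and 32.1 CPM in limbal cells and 2.50, 5.61 and 9.75 CPM in basal cells, with a change of 3.00 (SE 0.55, edgeR adjusted p = 0.028) from basal to conjunctival cells. Slc16a6 stood at 28.0, 28.9 and 23.4 CPM in conjunctival cells, 6.31, 9.35 and 6.77 CPM in superficial cells and at most 0.202 CPM in basal cells. The small immune class was second for this gene, and the conjunctival mean was 2.24 times the immune mean. Exons of Slc16a6 overlap Amz2 and Arsg on the other strand.

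Limbal cells, which hold the stem cells of the tissue, were compared with basal cells on fewer cells, 737 against 8829. Of the Slc genes 45 were higher and 25 lower, beside 21.4% and 18.8% of 12116 genes tested and 20.5% and 21.8% of those with 2000 or more UMIs. With at least 2-fold also required, 21 were higher and 12 lower, beside 8.05% and 3.84%. With counts scaled to the total only, 51 were higher and 17 lower, beside 27.1% and 14.6%. Of the limbal cells with 2000 or more UMIs, 25.3% carried 3 or more UMIs of Krt4, Krt13 and Krt19 at 2000 UMIs. The share was 0.0698% of basal, 37.4% of wing, 81.3% of superficial and 93.9% of conjunctival cells. Without those and shallower limbal cells, an alternative chosen after the data were seen, 25 Slc genes were higher and 24 lower. At 2000 UMIs per cell in both classes, 16 were higher and 11 lower. The share of all genes was not counted under either alternative, so a drop shared by all genes cannot be told from one in the Slc genes. Higher with all cells were Slc9a3r1 (1.46, SE 0.11) and Slc16a11 (0.96, SE 0.10). Slc35a1 was higher by 0.55 (SE 0.11) with all cells and had a change of -0.37 without the keratin-carrying cells, and the change of Slc31a2 went from 0.55 to 0.04. Of the 16 limbal results with the largest changes, 13 kept direction and call without these cells, and Slc35a3, at 0.38, and Slc31a2 no longer passed the test. The lower genes were led by Slc16a12, with 4.15, 2.55 and 7.78 CPM in limbal against 27.9, 25.0 and 32.7 CPM in basal cells (-2.75, SE 0.19, edgeR adjusted p = 1.5e-17). Slc2a1 had 7.95, 11.0 and 8.26 against 22.2, 20.0 and 21.6 CPM (-1.18, SE 0.16), and Slc38a2 had 141, 183 and 160 against 301, 350 and 343 CPM (-1.06, SE 0.08). In these 3 genes the limbal and basal values did not overlap. The taurine transporter Slc6a6 was close to its basal level, with 708, 534 and 506 against 740, 758 and 529 CPM (-0.24, SE 0.07).

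TAC1 and TAC2 cells were summed. The cycling markers Mki67 and Top2a stood at 296 and 389 CPM in TAC2 cells and at 15.0 and 37.6 CPM in TAC1 cells. Basal cells had 4.53 and 2.22 CPM, and limbal cells 38.2 and 44.3 CPM. Both markers were thus highest in TAC2 cells, while TAC1 cells lay above basal and below limbal cells. The sum had 31 of 134 tested Slc genes higher and 32 lower than basal cells, beside 22.9% and 20.3% of 12523 genes tested and 24.2% and 23.4% of those with 2000 or more UMIs. The total-scaled counts were 31 higher and 25 lower, beside 26.3% and 19.3%. By at least 2-fold 3 were higher (Slc16a6, Slc25a48 and Slc25a10) and 0 lower, beside 4.36% and 0.0646%. Without the library block 9 were higher and 4 lower, and without library 1 18 were higher and 19 lower. Without library 2 19 were lower. The share of all genes was not counted for these settings, so the drops are not particular to the Slc genes on this evidence. Slc25a10, the mitochondrial dicarboxylate carrier, had the largest change among genes with a mean log2 CPM of 4 or more (1.18, SE 0.07). It had 9.21, 9.36 and 7.70 CPM in basal, 16.9, 18.1 and 14.1 CPM in TAC1 and 23.4, 24.9 and 21.9 CPM in TAC2 cells. Slc24a5, a potassium-dependent sodium-calcium exchanger known from pigment cells, had 9.24, 8.60 and 16.3 CPM in basal and 23.7, 21.8 and 43.2 CPM in TAC2 cells (the sum against basal 0.96, SE 0.06). Within each library TAC2 cells were highest, at 1.89 times the next class on average. The melanocyte markers Mlana, Pmel and Dct were at 0, 1.76 and 2.48 CPM in TAC2 cells. Exons of Slc24a5 overlap Myef2 on the other strand, and the part of either in the level of Slc24a5 was not tested. Slc29a1 followed with 0.66 (SE 0.06).

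Over all cells, the highest library CPM was less than 1.5 times the lowest for 119 of the 136, and the median ratio was 1.20. Slc7a5 stood apart at 6.55, with 5.47 and 5.35 CPM in libraries 1 and 2 and 0.835 CPM in library 3. The gap was present within classes, for example with 7.53, 7.48 and 1.18 CPM in basal, 16.9, 14.7 and 2.92 CPM in limbal and 13.6, 12.5 and 3.38 CPM in TAC2 cells. Slc22a4 (2.18) and Slc39a1 (2.10) came next, with library 3 low for the former and high for the latter. Age, pool size and the library cannot be told apart in these differences.

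Free RNA can add UMIs to cells that do not express a gene. At 2000 UMIs per cell, 37.4% ± 5.6 of superficial cells (SD, n = 3) and 3.85% ± 0.26 of wing cells held a Slc5a1 UMI, while 0.266% ± 0.083 of basal and 0.952% ± 1.6 of immune cells did. Unthinned, the shares were 75.5%, 24.6%, 1.06% and 1.75%, at median depths of 15019, 14083, 8417 and 1976 UMIs. The immune share rests on library 2 alone, at 2.86% there, while basal cells had 0.238%, 0.359% and 0.201% in libraries 1 to 3, so these few immune cells do not settle how much of the basal share is free RNA, which was not tested. In the other direction, a Slc6a6 UMI was present in 72.1% ± 6.9 of basal and 3.64% ± 0.93 of superficial cells (93.5% and 14.4% unthinned), beside 27.6% ± 6.5 of immune cells (28.1% unthinned). The superficial share lies below the immune one, and whether immune cells express the gene was not tested. For both genes the thinned shares are means over libraries and cover only cells with 2000 or more UMIs. That leaves out 58 of the 114 immune cells, so the immune shares rest on few cells. The unthinned shares pool all cells of a class, so thinned and unthinned shares cover different cells.

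Genes that work with Slc transporters were taken from a list of 80, of which 58 could be tested between superficial and basal cells, and 34 were higher and 17 lower, beside 41.3% and 45.2% of all genes tested. When scaled to the total, 21 were higher and 27 lower, beside 22% and 69.9% of genes with 2000 or more UMIs. With TMM the shares of genes with 2000 or more UMIs were 47% and 40.6%. That limit was not applied to the partner genes, so the sets compared are unlike. Of 5 subunit genes of the sodium pump, which drives the sodium-coupled carriers, 2 were higher and 3 lower, and 0 and 3 when scaled to the total. Atp1b3, a beta subunit, fell by 1.95 (SE 0.08). Of 9 chloride and sodium channel genes 8 were higher (6 when scaled to the total), among them Scnn1a, a subunit of the epithelial sodium channel (4.95, SE 0.16), and Clic4 (5.32, SE 0.10). Scnn1b and Scnn1g, which encode other subunits of that channel, had 0 CPM in superficial cells. Their basal means were 0.298 and 0.237 CPM, so the rise of Scnn1a does not extend to the other subunit genes. Of 9 calcium, proton and copper pump genes 7 were higher (6 when scaled to the total), led in level by Atp2b1, a plasma membrane calcium pump, with 1421, 1430 and 1359 CPM in superficial and 79.9, 79.1 and 67.3 CPM in basal cells. Among 12 regulators 10 were higher and 2 lower (5 and 4 when scaled to the total), with Arrdc4, an arrestin-like protein that limits glucose uptake, at 5.59 (SE 0.11). Of 5 lactate and glucose handling enzymes 4 were lower and 0 higher, among them Ldha at -1.03 (SE 0.08).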

How the data were processed

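The deposited matrix held UMI counts per gene and cell, not normalized by the authors (unit read from its whole-number values), and a deposited metadata table gave each cell's library and class. Cell Ranger 5.0.0, Seurat 4 and mm10 are named in the submitters' processing notes, with no role given. Filters, doublet handling, strand use and the making of the classes have no account in the labels. The numbered library names gave libraries 2 and 3 while the remaining name went to library 1; 0 columns were unmapped.

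Counts were summed per library and class and tested with edgeR 4.0.16 (R 4.3.3, limma 3.58.1; quasi-likelihood, robust, TMM, filterByExpr), with the library as a block because both classes of a pair come from the same 3 libraries. Benjamini-Hochberg adjustment ran over all genes tested, at 0.05. SE is the absolute log2 fold change over the square root of F. CPM levels by class were scaled over all 24 sums. All 136 genes passed the filter in each comparison except TAC1 and TAC2 summed against basal, where 134 did. The test was checked on simulated superficial against basal counts of 12500 genes, with few genes changed and as many up as down. It called all 50 genes at each set fold (2, 0.5, 4 and 0.25) and 24 of 11825 unchanged genes. In the real comparison most genes were called, so the check does not cover the scaling there. Alternatives were DESeq2 1.42.0, RLE scaling, no filter, no replicate block, each library left out, thinning to 2000 UMIs, equal cell numbers, class labels redrawn on a random 50% of UMIs with the test on the remainder, and removal of the 5% of cells with the highest Scrublet score (scanpy 1.11.5).

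The genes, lists, groups and tests were chosen with earlier results of these data known. Named genes are, per comparison, the 8 largest higher and 8 largest lower changes past the threshold that agree in sign over the libraries, at mean log2 CPM 4 or above. Further named are up to 3 class-leading genes of at least 20 CPM, the 3 most counted of each substrate group, the 3 with the largest ratio between libraries, the 3 genes that are not transporters by name, those at the 2000 UMI limit, and up to 3 partner genes per comparison. Named after their values were seen were Slc4a7, Slc11a2, Slc12a4, Slc16a13, Slc20a1, Slc20a2, Slc22a21 and Slc52a3. Of the 136 symbols 135 matched 1 record of GENCODE M21. Exons overlap a measured gene on the other strand for 26 of them and on the same strand for 1, Slc10a3. Some genes that the naming rule selects are not reported here, and 4 genes are left out of the heatmap. Intervals over 3 libraries cover the spread between pools only.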

Additional observations from a re-analysis of the deposited data

How the results depend on the processing

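Of the 96 results for the 8 largest changes per direction in the 6 comparisons, 78 kept direction and call under every alternative run. These genes were picked for large changes. Over all 136 genes, scaling to the total turned 15 of 72 higher calls between superficial and basal cells and 26 of 64 between superficial and wing cells to lower. The counts of higher and lower genes between superficial and basal cells became 43 and 79, and between superficial and wing cells 30 and 97, when counts were scaled to the total only. The genes highest in limbal, TAC2, superficial and immune cells then numbered 22, 14, 22 and 27, and those peaking in wing cells among the 3 layers went from 20 to 42. For limbal against basal cells, 16 higher and 11 lower genes were left at 2000 UMIs per cell, 25 higher without keratin-carrying cells, and 16 lower with DESeq2. For TAC1 and TAC2 summed against basal cells, higher and lower genes numbered 9 and 4 without the replicate block, 11 and 9 with DESeq2, and 13 and 14 at 2000 UMIs per cell. Leaving out 1 library at a time gave 18 to 26 higher and 19 to 26 lower there, lowest without library 1 for higher genes (18) and without library 1 or 2 for lower genes (19 each). Shares of all genes were counted only for the main setting and for scaling to the total. Under the other alternatives, a shift shared by all genes would move these Slc counts too. Reversed were Slc31a1 (-0.14) and Slc9a3r1 (-0.33) in TAC1 and TAC2 cells with reassigned classes, and Slc35a1 in limbal cells at 2000 UMIs (-0.13) and without keratin-carrying cells (-0.37). The cause was not tested. Pairing by library is by construction, and without the block no other count moved by over 1.5 times. DESeq2, RLE scaling, the low-count filter, equal cell numbers and doublet removal left the counts of both superficial comparisons within 1.5 times. The limbal class has 737 cells and the immune class 114, at median depths of 8690 and 1976 UMIs.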
